A study of Mus musculus with 2 samples.

Results

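The 10 genes described here mediate or control the reabsorption of NaCl, magnesium and calcium in the distal nephron, and they were measured in 2 single-cell RNA libraries of mouse kidney. They were chosen by gene symbol, 10 of the 32285 genes listed in the deposited counts. In the NaCl group of 5 genes, Slc12a3 encodes the thiazide-sensitive NaCl cotransporter (NCC), Wnk1 and Wnk4 encode kinases of the WNK family, Stk39 encodes SPAK, and Klhl3 encodes a substrate adaptor of a cullin ubiquitin ligase. The magnesium group of 2 genes holds Trpm6, the apical magnesium channel, and Pvalb, which encodes the cytosolic calcium buffer parvalbumin. The calcium group of 3 genes holds Trpv5, the apical calcium channel, Calb1, which encodes calbindin-D28K, and S100g, which encodes calbindin-D9k. All 10 are protein-coding genes with UMIs (unique molecular identifiers, each marking 1 captured RNA molecule) in both libraries.

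The control library was made from the contralateral, uninjured kidney. By the labels, the ischemia library was made from a kidney that underwent 27 min of ischemia and 24 h of reperfusion. The surgical methods of the study give a slightly shorter ischemia, but for a procedure in which the other kidney was removed. Both kidneys came from wildtype male C57BL/6J mice of 19 weeks, and whether they came from the same mouse is not given in the sources used here. With 1 library for each condition, an effect of ischemia cannot be told apart from a difference between kidneys, libraries or, if there were several, mice, so no test between conditions was run and all intervals cover counting error only.

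NCC lies in the apical membrane of the distal convoluted tubule (DCT) and, in the mouse, of the first part of the connecting tubule (CNT). WNK kinases phosphorylate SPAK, SPAK phosphorylates and activates NCC, and the ligase that contains KLHL3 marks WNK kinases for degradation. TRPM6 takes up magnesium across the apical membrane of the DCT, where parvalbumin marks the early segment, while TRPV5 takes up calcium in the late DCT and CNT and the calbindins buffer it on its way to the basolateral exchanger and pump.

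The members are on different chromosomes of GRCm38, apart from Wnk1 and Trpv5. In the GENCODE M21 annotation, Slc12a3 spans bases 94329201 to 94366214 of chromosome 8 (plus strand). Wnk1 spans bases 119923969 to 120038672 of chromosome 6 (minus strand), Wnk4 spans bases 101260567 to 101277409 of chromosome 11 (plus strand), Stk39 spans bases 68210445 to 68472268 of chromosome 2 (minus strand) and Klhl3 spans bases 58000228 to 58113592 of chromosome 13 (minus strand). Trpm6 spans bases 18749983 to 18892511 of chromosome 19 (plus strand) and Pvalb spans bases 78191114 to 78206400 of chromosome 15 (minus strand). Trpv5 spans bases 41652173 to 41680769 of chromosome 6 (minus strand), Calb1 spans bases 15881264 to 15908064 of chromosome 4 (plus strand) and S100g spans bases 162961992 to 162964599 of chromosome X (minus strand).

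The promoters of the NaCl cotransporter, of parvalbumin and of the calcium channel are shown, because these genes had the smallest, the largest and the only upward difference between the libraries in the cells of the DCT and CNT described next. The RefSeq table of GRCm38.p6 promoters held an entry for 9 of the 10 members. Each run gives the 250 bases before the RefSeq start, 5′ to 3′ along the gene's strand, with TATAAA on either strand in capitals. The windows are chr8:94328958-94329207 on the plus strand for Slc12a3, chr15:78206401-78206650 on the minus strand for the first Pvalb entry and chr6:41680724-41680973 on the minus strand for Trpv5.
Slc12a3: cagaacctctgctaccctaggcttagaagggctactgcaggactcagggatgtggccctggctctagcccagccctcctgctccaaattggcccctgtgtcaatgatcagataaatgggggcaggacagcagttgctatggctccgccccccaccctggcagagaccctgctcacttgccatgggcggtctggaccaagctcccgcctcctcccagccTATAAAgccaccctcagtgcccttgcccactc
Pvalb: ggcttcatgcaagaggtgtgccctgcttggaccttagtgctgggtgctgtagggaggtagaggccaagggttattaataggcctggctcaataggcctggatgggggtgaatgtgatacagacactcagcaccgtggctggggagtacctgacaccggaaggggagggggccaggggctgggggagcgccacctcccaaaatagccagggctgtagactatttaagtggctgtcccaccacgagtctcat
Trpv5: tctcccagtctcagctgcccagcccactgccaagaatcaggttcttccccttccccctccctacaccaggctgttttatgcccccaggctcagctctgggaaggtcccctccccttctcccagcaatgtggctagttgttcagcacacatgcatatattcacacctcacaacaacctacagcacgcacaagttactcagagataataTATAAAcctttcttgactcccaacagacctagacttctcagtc
TATAAA began 32 bases before the start of Slc12a3 and 43 bases before that of Trpv5, and these letters were not in the Pvalb window or in those of the other members. Of 32851 promoter windows of the same length, 12.4% held them. The letters TGANTCA, to which AP-1 factors bind, were in no member's window and in 6.75% of all windows. CANNTG, the E-box, was in the windows of Slc12a3, Klhl3, Trpm6, Trpv5 and S100g and in that of the second Pvalb entry, against 66.2% of all windows.

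Filters on genes, UMIs and mitochondrial UMIs kept 12586 of 15110 control barcodes and 13116 of 15257 ischemia barcodes, with 124679362 and 128733541 UMIs. The kept cells of both libraries had 58 barcode sequences in common. Clusters were named from marker genes that excluded the 10 members, and the members were also left out of the genes used for clustering. The cluster named DCT-CNT-like held 447 control cells (3.55% of the library) and 338 ischemia cells (2.58%), at medians of 20025 and 22722 UMIs and 27.1% and 26.0% mitochondrial UMIs per cell. The 10 DCT-CNT markers that named it summed to 11217 and 6559 CPM there (CPM are UMIs scaled to a total of 1000000 over the same cells), with none at 0 in either library. CD-PC-like cells, named by markers of principal cells of the collecting duct, numbered 456 and 393. Other named groups used here were TAL-like cells (thick ascending limb, 494 and 491), intercalated-like cells (58 and 46) and PT-like cells (proximal tubule, 2201 and 1758). EC-like cells (endothelium) numbered 904 and 1038, and macrophage-like cells 330 and 625. The largest cluster that stayed unnamed, cluster 0, held 10459 cells at medians of 895 and 798 UMIs. The unnamed cluster 4 held 1577 cells that separated into TAL and DCT-CNT clusters at a finer resolution. When its cells were instead clustered again with other distal cells, described below, the shallow sub-clusters of 987 and 573 cells were both named TAL-like. The former had no TAL marker among its leading genes, which included Cyp4a10, Spp2 and Kap. With the members kept among the variable genes, a cluster of 1596 cells had leading genes like those of cluster 4, with Pvalb first. Cells of the DCT may thus also lie outside the DCT-CNT-like class.

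In the control kidney, Slc12a3, Pvalb and Trpm6 were largely found in DCT-CNT-like cells. These cells held 82.0% of the Slc12a3 UMIs, 74.6% of the Trpm6 UMIs and 69.1% of the Pvalb UMIs of all kept cells. Klhl3 had 58.0% of its UMIs there and Wnk1 46.2%. Trpv5 was instead found mainly in CD-PC-like cells, with 70.9% of its UMIs, against 18.1% in DCT-CNT-like cells. Calb1 was divided between them, at 40.3% in DCT-CNT-like and 34.4% in CD-PC-like cells, and S100g at 25.7% and 44.6%. Stk39 and Wnk4 were the members with the largest shares in TAL-like cells, 30.3% and 20.6%, beside 29.7% and 34.3% in DCT-CNT-like cells.

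The 9 CNT marker genes, which include Aqp2 of principal cells, summed to 20962 CPM in control CD-PC-like and 7720 CPM in control DCT-CNT-like cells, so this list does not separate the CNT from principal cells. In control CD-PC-like cells the 7 CD-PC markers summed to 5546 CPM, the 10 DCT-CNT markers to 18079 CPM and the 8 intercalated markers to 2956 CPM. These cells thus carried markers of several distal types, and levels in them are not those of principal cells alone. When DCT-CNT-like, CD-PC-like and cluster 4 cells were clustered again together, a choice made after seeing the data, Trpv5 was highest in a sub-cluster of 135 cells that stayed unnamed, at 299 CPM in the control, and next in a CNT-like sub-cluster of 301 cells at 143 CPM.

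**Figure D1:**
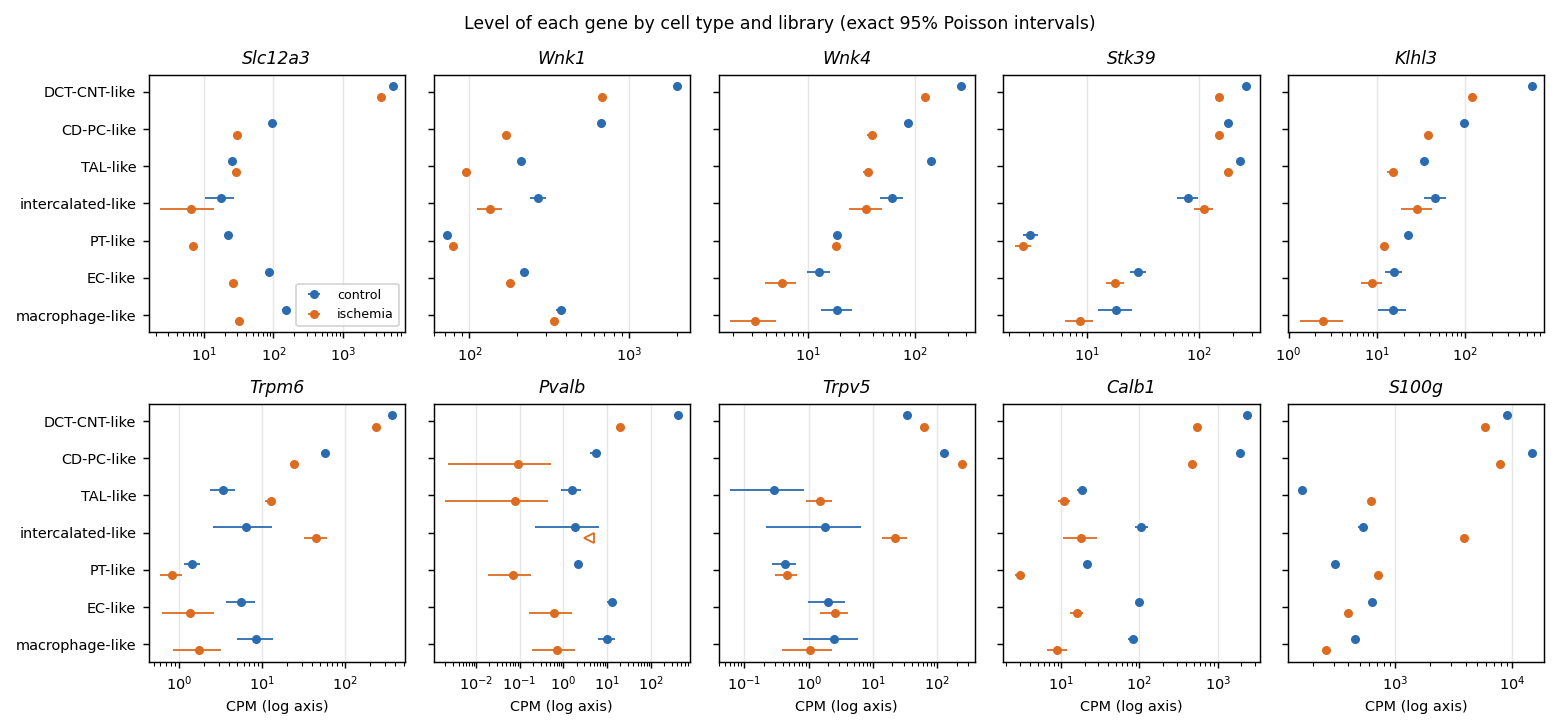
Level of each member in 7 cell types, as CPM on a log axis, with filled points for the control and ischemia libraries, bars for exact 95% Poisson intervals and an open triangle for an upper limit where no UMI was found. Slc12a3 stood at 5316 and 3612 CPM in DCT-CNT-like cells, and Trpv5 was highest in CD-PC-like cells, at 127 and 242 CPM.

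**Figure D2:**
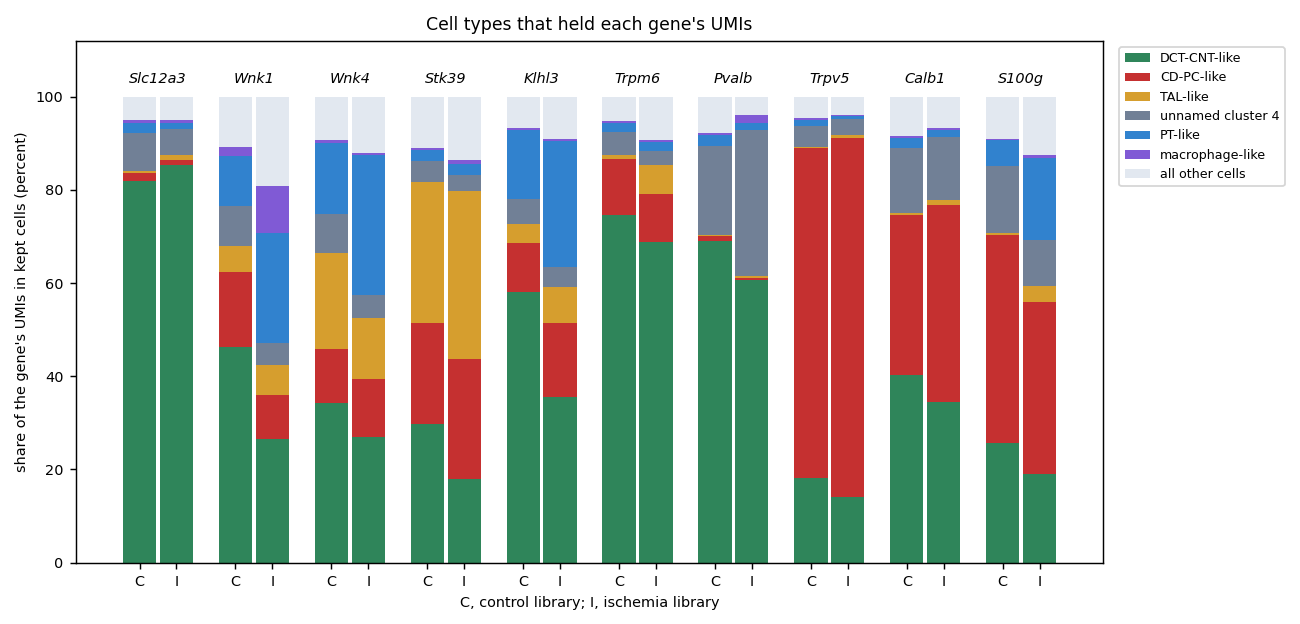
Share of each member's UMIs in percent by cell type, stacked, for the control (C) and ischemia (I) library. The DCT-CNT-like share of Slc12a3 was 82.0% and 85.4%, while that of Wnk1 was 46.2% and 26.6%.

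The order of cell types by level differed among the members. Slc12a3 stood at 5316 CPM (95% Poisson interval 5268–5364) in control DCT-CNT-like cells, 95.1 CPM in CD-PC-like, 25.4 CPM in TAL-like and 21.8 CPM in PT-like cells. Stk39 stood at 263 CPM (253–274) in DCT-CNT-like, 232 CPM (223–242) in TAL-like and 183 CPM (174–192) in CD-PC-like cells, so that its levels in these 3 types were close together although beyond counting error. Wnk1 stood at 2004 CPM (1975–2034) in DCT-CNT-like, 666 CPM in CD-PC-like and 210 CPM in TAL-like cells. Macrophage-like cells, which are no tubule cells, had 375 CPM of Wnk1 but 18.1 CPM of Stk39.

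Free RNA in the droplets adds UMIs of tubule genes to other cells, and macrophage-like cells were used to read its level. Their control and ischemia values were 150 and 32.1 CPM for Slc12a3, 82.8 and 8.95 CPM for Calb1 and 460 and 258 CPM for S100g. S100g was detected almost everywhere, with a UMI in 11689 of the 12586 control cells and in 92.4% of control macrophage-like cells, and the part of free RNA in this was not tested. For Pvalb, macrophage-like cells had 10.0 and 0.702 CPM, and for Trpv5 2.51 and 1.05 CPM. The Pvalb levels of control CD-PC-like (5.43 CPM), TAL-like (1.55 CPM) and PT-like cells (2.21 CPM) were below that of macrophage-like cells. Control macrophage-like cells were shallower, at a median of 5150 UMIs against 16162 to 26459 in these tubule cells. The same number of free UMIs gives a higher CPM in a shallower cell. The part of free RNA in levels below theirs was thus not tested.

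To ask how the distal transport genes differed between the kidneys, CPM of the ischemia library was divided by CPM of the control library within DCT-CNT-like cells. A gene was counted as lower or higher when it differed by at least 1.5-fold and had at least 50 UMIs over both libraries. Among the 10 members, all of which had the UMIs, 8 were lower and 1 was higher in the ischemia library. Over all 10623 genes with the UMIs, 11.9% were lower and 15.4% were higher. At 2-fold, 5 members (Klhl3, Wnk1, Wnk4, Pvalb and Calb1) were lower, against 4.82% of all genes, and 0 were higher, against 6.36%. The median log2 ratio of the members was -0.96, and that of all genes was 0.08. Of all genes, 0.0377% had a lower ratio than Pvalb and 0.377% a lower ratio than Klhl3.

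**Figure D3:**
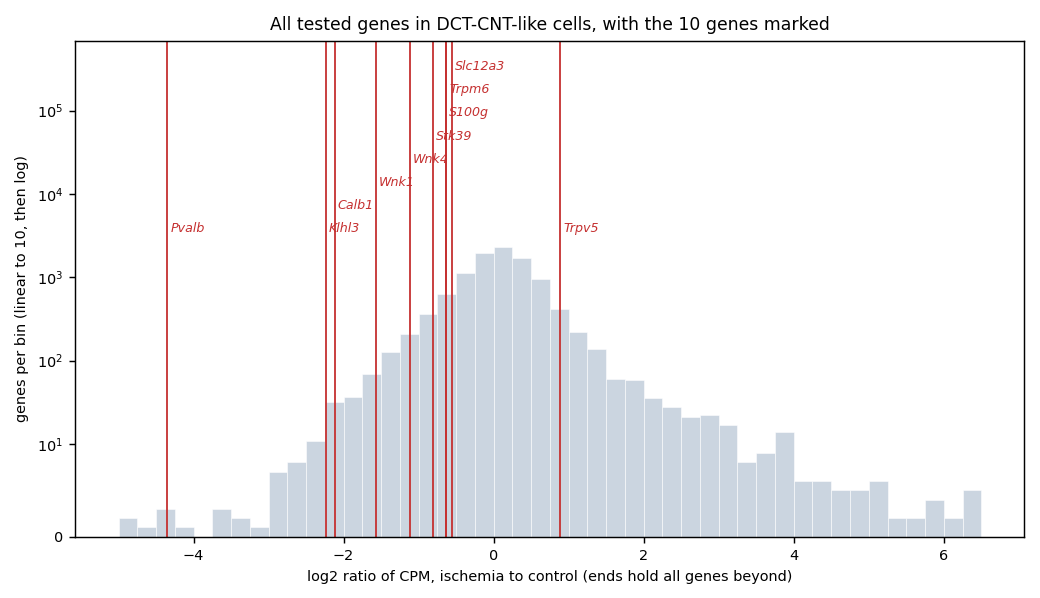
Histogram of the log2 ratio of ischemia to control CPM in DCT-CNT-like cells for 10623 genes, with the number of genes on an axis that is linear to 10 and logarithmic above, the end bins holding all genes beyond them and vertical marks for the 10 members. Pvalb is at -4.35, Trpv5 is the only member to the right of 0, and the median of all genes is 0.08.

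In the NaCl group, the regulators of NCC differed more between the libraries than the cotransporter itself in DCT-CNT-like cells, with exceptions for Stk39. Stk39 differed less than Slc12a3 when cells were gated by their marker UMIs instead of clustered. The same held in CNT-like cells, given below, both in the sub-clusters of DCT-CNT-like cells and in those of the wider set of distal cells. Slc12a3 was at 5316 CPM (5268–5364) in control cells and 3612 CPM (3569–3655) in those of the ischemic kidney, a ratio of 0.679 (0.669–0.690), which did not reach the 1.5-fold limit. It passed that limit under 5 of the 13 alternatives of processing, where its log2 ratio ranged from -0.90 to -0.44 against -0.56 here. At least 1 of its UMIs was carried by 96.4% of ischemia DCT-CNT-like cells, against 99.1% of control cells.

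Klhl3 was at 562 CPM (547–578) in control cells and 119 CPM (111–127) in those of the ischemic kidney, 4.72-fold lower, the widest difference of the NaCl group. Wnk1 was at 2004 CPM (1975–2034) and 676 CPM (658–695), 2.96-fold lower. With the level of macrophage-like cells of the same library (375 and 338 CPM) subtracted, its log2 ratio was -2.27, against -1.57 here. PT-like cells had 72.8 and 79.1 CPM of Wnk1. They were deeper, at medians of 26459 and 35960 UMIs against 5150 and 8264 in macrophage-like cells. The part of free RNA in the macrophage-like level was not tested. Taking a similar level from both libraries widens the ratio, so the log2 ratio of -2.27 is no correction for free RNA. The 3′ counts do not separate the kidney-specific Wnk1 transcript, which lacks the kinase domain and is abundant in the DCT, from the full-length kinase. The share of Wnk1 UMIs held by macrophage-like cells was 1.9% for control and 10.0% for ischemia. These cells held 1.60% and 4.43% of all UMIs of the kept cells. Wnk4 was at 268 CPM (257–279) and 124 CPM (116–132), 2.17-fold lower. Stk39 was at 263 CPM (253–274) and 151 CPM (142–160), 1.75-fold lower. With the gate on marker UMIs its log2 ratio was -0.55, short of 1.5-fold, against -0.81 here.

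In the magnesium group, the buffer and the channel differed to very unequal extents. Pvalb was at 407 CPM (394–421) from 3626 UMIs in the control and at 20.0 CPM (16.9–23.4) from 151 UMIs in the ischemia library, 20.4-fold lower (17.3–24.1). This was the widest difference among the members, and it ranged from -4.70 to -4.06 in log2 ratio over the alternatives. Of the DCT-CNT-like cells, 59.1% in the control and 19.2% in the ischemic kidney had a Pvalb UMI. Trpm6 was at 364 CPM (351–376) and 234 CPM (223–245), 1.55-fold lower. Without sub-cluster 1 of these cells, described below, its log2 ratio was -0.54, short of 1.5-fold, against -0.64 with it.

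In the calcium group, the channel was higher and both calbindins were lower in the ischemia library. Trpv5 was at 34.1 CPM (30.4–38.2) from 304 UMIs in the control and at 63.1 CPM (57.6–69.0) from 477 UMIs in the ischemia library, a ratio of 1.85 (1.60–2.14). This direction depended on the cells: in the 188 control and 153 ischemia cells with at most 25% mitochondrial UMIs it was at 23.0 and 17.2 CPM, with a ratio of 0.746 (0.495–1.12) from 53 and 49 UMIs, and in the cells above 25% it was at 38.0 and 91.0 CPM. Calb1 was at 2407 CPM (2375–2439) and 553 CPM (536–570.0), 4.35-fold lower, and its log2 ratio was -2.97 in the cells with at most 25% mitochondrial UMIs, against -2.12 here. S100g was at 9024 CPM (8962–9086) and 5794 CPM (5740–5848), 1.56-fold lower. S100g was thus just past the 1.5-fold limit, and its log2 ratio fell short of it when cells were gated by marker UMIs (-0.58), when CPM were averaged over cells (-0.42) and without sub-cluster 3 (-0.46). Trpv5 has a close paralog, Trpv6, beside it on chromosome 6, and reads that match both could be lost or divided.

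Clustered again by themselves, the DCT-CNT-like cells formed 5 sub-clusters, numbered from 0. Sub-cluster 2 held 80 control and 67 ischemia cells and was CNT-like, with Klk1 and Scnn1g among its leading genes. Sub-cluster 0 held 225 and 146 cells and was low in CNT markers, which summed to 1604 and 1180 CPM there against 24206 and 17354 CPM in sub-cluster 2. The DCT markers did not set them apart in this way, since they summed to 3702 and 1475 CPM in sub-cluster 0 and to 3587 and 2506 CPM in sub-cluster 2, and no DCT marker was among the 10 leading genes of sub-cluster 0. The 6 TAL markers summed to 2549 and 2447 CPM in sub-cluster 0 and to 995 and 940 CPM in sub-cluster 2. Their part in the members' values was not tested. Sub-cluster 1 (119 and 83 cells, shallow and led by PT genes) and sub-cluster 3 (3 and 38 cells, led by Ccl20, Lif, Il1rn and Cxcl2) stayed unnamed. Sub-cluster 4 held 20 and 4 cells, too few for values of the members.

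The CNT-like sub-cluster 2 carried the calcium genes, and Pvalb was higher in sub-cluster 0. In the control, S100g reached 33246 CPM in the CNT-like sub-cluster 2 against 839 CPM in sub-cluster 0, Calb1 was at 6889 and 860.0 CPM, and Trpv5 at 127 and 0.379 CPM, the last from 2 UMIs. Pvalb was at 48.3 CPM in the former and 591 CPM in the latter. Slc12a3 was at 4443 and 5446 CPM, so the CNT-like sub-cluster also held NCC transcripts at a level near that of sub-cluster 0. The members were not among the genes that formed these sub-clusters.

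In both sub-clusters, Wnk1, Wnk4, Klhl3, Pvalb and Calb1 were lower in the ischemia library. In sub-cluster 0, 6 of the 9 members with enough UMIs were lower and 0 were higher, against 11.7% and 17.6% of all genes there. In the CNT-like sub-cluster 2, 7 of 10 were lower and 1 was higher, against 9.58% and 12.2%. Pvalb was at 591 and 31.0 CPM in sub-cluster 0 and at 48.3 and 2.21 CPM in sub-cluster 2, with the latter value from 4 UMIs. Klhl3 was at 537 and 123 CPM in sub-cluster 0 and at 508 and 164 CPM in sub-cluster 2. Calb1 was at 860.0 and 229 CPM in sub-cluster 0 and at 6889 and 1704 CPM in sub-cluster 2.

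Other members had unlike ratios in these sub-clusters, differences that were not tested. Stk39 had a ratio of 0.529 (0.480–0.582) in sub-cluster 0 and 0.913 (0.778–1.07) in sub-cluster 2. Its log2 ratio in CNT-like cells was -0.13 here. It was -0.48 with sub-clustering at resolution 0.5, where a shallow group of 100 control and 75 ischemia cells was also named CNT-like. Sub-cluster 2 kept its numbers of cells and UMIs at that resolution, so -0.48 is not a value of sub-cluster 2 alone. Trpm6 had a ratio of 0.721 (0.665–0.781) in sub-cluster 0, short of 1.5-fold, and 0.477 (0.418–0.543) in sub-cluster 2. S100g had a ratio of 0.940 (0.898–0.984) in sub-cluster 0 and 0.634 (0.626–0.642) in sub-cluster 2, an order that turned around in cells with at most 25% mitochondrial UMIs. There the ratio was 0.556 (0.5147–0.5997) in sub-cluster 0, from 71 and 64 cells, and 0.915 (0.880–0.952) in sub-cluster 2, from 11 and 9 cells. Above 25% it was 1.22 and 0.608. Slc12a3 had ratios of 0.778 (0.763–0.793) and 0.692 (0.669–0.715), both short of 1.5-fold. In the CNT-like cells of the wider set of distal cells its log2 ratio was -0.68, past that limit. At resolution 0.5, with the shallow group also named CNT-like, it was -0.62, again past the limit, though sub-cluster 2 kept its numbers of cells and UMIs. In the unnamed sub-cluster 1, S100g was at 1381 and 2760 CPM, opposite in direction to sub-cluster 2. Trpv5 had 2 and 1 UMIs in sub-cluster 0, while in sub-cluster 2 it was at 127 CPM (113–143) and 242 CPM (220–266). In the sub-cluster 2 cells with at most 25% mitochondrial UMIs it was at 139 and 146 CPM, with a ratio of 1.05 (0.607–1.81) from 36 and 25 UMIs, so the higher Trpv5 level of the ischemia library was seen in the cells above 25%, at 125 and 252 CPM. Sub-cluster 0 held more UMIs in total than sub-cluster 2 (5283913 and 4067449 against 2236929 and 1807127). Trpv5 was thus nearly absent there, with too few UMIs to show a difference.

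**Figure D4:**
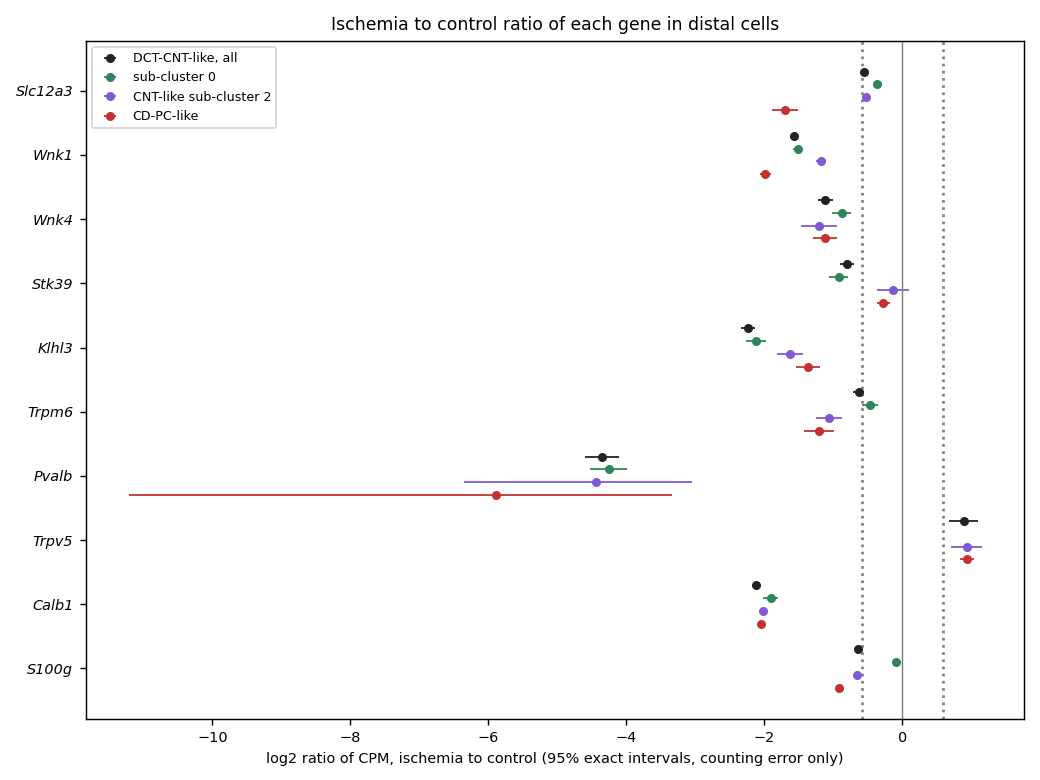
Log2 ratio of ischemia to control CPM of each member in all DCT-CNT-like cells, in sub-cluster 0, in the CNT-like sub-cluster 2 and in CD-PC-like cells, with 95% counting intervals and dotted lines at 1.5-fold. Trpv5 lies above 0 in DCT-CNT-like cells (0.89), sub-cluster 2 (0.93) and CD-PC-like cells (0.93), and Pvalb lies at or below -4.25 in each set of cells, with 51 and 1 UMIs in CD-PC-like cells.

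CD-PC-like cells, which held the largest shares of the Trpv5 and S100g UMIs, gave 8 members lower and 1 higher, against 11.5% and 12.8% of all genes there. Among the 8, Slc12a3 (95.1 and 29.3 CPM) and Pvalb (51 and 1 UMIs) lay below the level of the shallower macrophage-like cells. The part of free RNA in the few Pvalb UMIs was not tested. Slc12a3 was above the 21.8 and 6.96 CPM of PT-like cells. In the CD-PC-like cells above 25% mitochondrial UMIs, Slc12a3 stood at 193 and 109 CPM, above the 150 and 32.1 CPM of macrophage-like cells. The part of free RNA in its level was not tested. Trpv5 was at 127 CPM (120–134) and 242 CPM (233–252), with a ratio of 1.91 (1.78–2.04). In the CD-PC-like cells with at most 25% mitochondrial UMIs it was at 128 and 227 CPM, so the direction in these cells did not rest on cells of high mitochondrial content. Calb1 was at 1944 and 470 CPM, 4.14-fold lower, and S100g at 14863 and 7881 CPM, 1.89-fold lower. Stk39 was at 183 and 151 CPM, with a ratio of 0.826 (0.771–0.884), and was the member that stayed short of 1.5-fold. In the same CD-PC-like cells the 7 CD-PC markers summed to 5546 and 3305 CPM, the 6 PMN (neutrophil) markers, of which 4 were at 0 in the control, to 1.06 and 97.8 CPM and the injury list to 6390 and 50461 CPM, and their part in the members' values was not tested.

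The sub-clusters of the wider set of distal cells gave the same arrangement of the calcium genes. In the unnamed sub-cluster of 56 control and 79 ischemia cells, Trpv5 was at 299 and 613 CPM, Calb1 at 5154 and 1082 CPM and S100g at 31909 and 16961 CPM. In the CNT-like sub-cluster of 165 and 136 cells, Trpv5 was at 143 and 312 CPM, Calb1 at 5756 and 1357 CPM and S100g at 36630 and 19979 CPM. The leading genes of the former were Cd8a, Stc1, Kcne1, Prr5l, S100a8, S100a9, Spink12, Ifitm1, Egfem1 and Cr2, which include genes of neutrophils. The PMN markers summed there to 1.04 and 247 CPM, with 5 of 6 at 0 in the control, and the macrophage markers to 70.6 and 5.80 CPM, and their part in the Trpv5 values was not tested. These sub-clusters shared the calcium genes but not the cotransporter, since Slc12a3 was at 33.2 and 5.27 CPM in the former and at 3104 and 1932 CPM in the latter. With at most 25% mitochondrial UMIs, Trpv5 ratios were 1.99 in the former and 1.60 in the latter.

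In the TAL, WNK kinases and SPAK act on a related cotransporter, NKCC2. Of the 8 members with enough UMIs, 4 (Wnk1, Wnk4, Klhl3 and Calb1) were lower and 2 (Trpm6 and S100g) were higher in the ischemia library, against 15.7% and 17.6% of all genes there. Calb1, at 18.6 and 11.0 CPM, was below the 82.8 CPM of macrophage-like cells in the control. In the ischemia library it was not below their 8.95 CPM. Wnk4 was at 139 CPM (132–147) and 36.1 CPM (32.8–39.5), 3.86-fold lower. Stk39 was at 232 CPM (223–242) and 181 CPM (173–188), with a ratio of 0.778 (0.734–0.824). Wnk1 was at 210 and 95.4 CPM, below the 375 and 338 CPM of macrophage-like cells. The Wnk4 difference was thus wide in both TAL-like and DCT-CNT-like cells. PT-like cells had 18.6 and 18.0 CPM of Wnk4, at the level of macrophage-like cells in the control (18.6 CPM) and above it in the ischemia library (3.16 CPM).

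Over all kept cells, 7 members were lower and 1 was higher, against 9.51% and 18.5% of all genes. The lower members there were Slc12a3, Wnk1, Wnk4, Klhl3, Trpm6, Pvalb and Calb1, while Stk39 had a ratio of 0.779 and S100g of 0.716. A level over all cells also depends on how many cells of each type were captured, so fewer cells of a type and less RNA per cell cannot be told apart in it.

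The differences were also present cell by cell within the DCT-CNT-like cells. The median cell had 5379 CPM of Slc12a3 in control cells and 3524 CPM in those of the ischemic kidney, with 10th percentiles of 3159 and 987 CPM and 90th percentiles of 9700 and 7063 CPM. For Wnk1 the median cell had 1830 and 400 CPM, and for Klhl3 506 and 68.2 CPM. The Wnk1 level of the median ischemia cell was below the 10th percentile of control cells, 900.1 CPM, and the Klhl3 level of the median ischemia cell was below that of 156.9 CPM. For Calb1 the median cell had 566 and 86.5 CPM. For Pvalb it had 99.3 CPM in the control and none in the ischemia library, and the 90th percentiles were 1133 and 51.6 CPM. S100g differed widely among cells, with medians of 576 and 493 CPM and 90th percentiles of 27476 and 17265 CPM. Its medians were close together, and the pooled difference lay in the cells with most S100g.

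**Figure D5:**
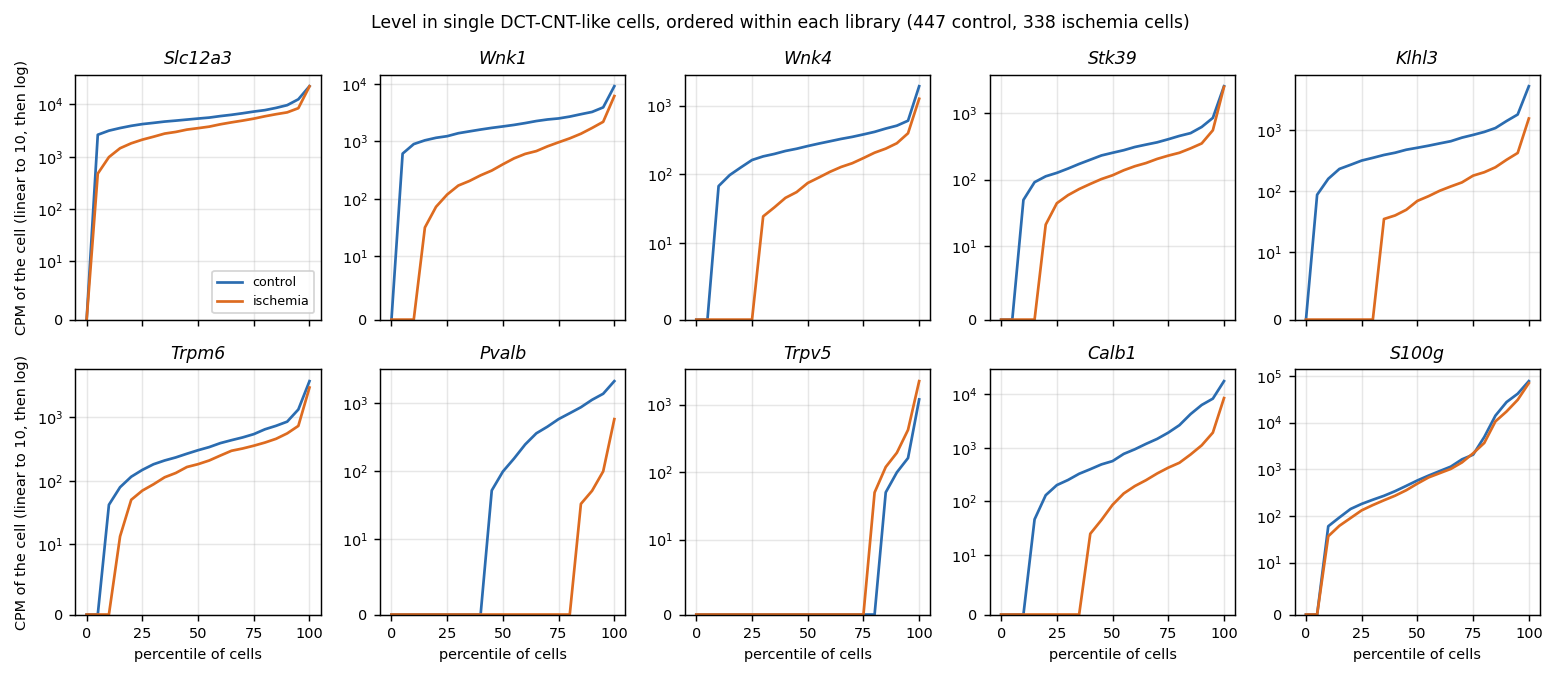
Level of each member in single DCT-CNT-like cells, as CPM by percentile of cells, for 447 control and 338 ischemia cells, on an axis that is linear to 10 CPM and logarithmic above. The median cell was at 99.3 CPM of Pvalb among control cells and 0 among ischemia cells, and at 506 and 68.2 CPM of Klhl3.

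To compare shares of cells at equal depth, 1000 UMIs were drawn at random from each cell. Slc12a3 was then detected in 96.9% of the control and 88.8% of the ischemia DCT-CNT-like cells, against 9.91% and 2.30% of macrophage-like cells. Wnk1 was found in 79.1% and 36.7%, Klhl3 in 48.1% and 10.7%, Calb1 in 47.4% and 22.8% and Pvalb in 23.4% and 2.07%. For each of these genes the share was lower in the ischemia library, as was the CPM. For Wnk1, macrophage-like cells gave 26.6% and 27.9%, so the ischemia share in DCT-CNT-like cells was not far above theirs. Trpv5 was found in 2.25% and 6.80%, and S100g in 53.5% and 48.5% against 42.1% and 25.2% of macrophage-like cells.

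Cells with Slc12a3 carried Pvalb, Klhl3, Wnk1, Calb1, Wnk4 and Trpm6 less often in the ischemia library. Among thinned cells with a Slc12a3 UMI, 431 of the control and 300 of the ischemia library, Pvalb was found in 101 (23.4%) and 7 (2.33%), Klhl3 in 207 (48.0%) and 36 (12%), and Wnk1 in 344 (79.8%) and 115 (38.3%). Calb1 was found in 204 (47.3%) and 69 (23%) of them, and Trpv5 in 9 (2.09%) and 16 (5.33%). Wnk4 was found in 108 (25.1%) and 36 (12%), and Trpm6 in 148 (34.3%) and 66 (22%). Stk39 was found in 88 (20.4%) and 51 (17%) and S100g in 229 (53.1%) and 138 (46%), both with overlapping intervals. As these cells were 431 of 445 thinned control cells and 300 of 338 thinned ischemia cells, the counts largely repeat those over all cells.

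Other genes of the same transport routes were taken from 3 lists. Of 15 other genes of NaCl handling, 13 had the UMIs, and 4 were lower, 2 higher and 7 neither in DCT-CNT-like cells, with a median log2 ratio of -0.15. Ppp1r1a, an inhibitor of protein phosphatase 1, was at 662 and 250 CPM. Bsnd, the barttin subunit of the basolateral chloride channels, was at 45.7 and 19.1 CPM, and Kcnj10, a basolateral potassium channel, was at 175 and 105 CPM. Sgk1, a kinase induced by aldosterone, was at 3.26 and 5.69 CPM.

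Of 13 other genes of magnesium handling, 12 had the UMIs, and 6 were lower, 3 higher and 3 neither, with a median of -0.69. Egf, whose product stimulates TRPM6, was at 765 and 111 CPM, and Cnnm2, a basolateral protein of magnesium transport, was at 280.0 and 94.1 CPM. Slc41a3, a magnesium transporter, was at 7.07 and 2.25 CPM. Egfr, the receptor of EGF, was at 20.7 and 49.1 CPM, so that the ligand was lower and the receptor higher in the ischemia library.

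Of 11 other genes of calcium handling, 10 had the UMIs, and 5 were lower, 2 higher and 3 neither, with a median of -0.56. Slc8a1, the basolateral sodium-calcium exchanger, was at 3793 and 655 CPM, and Kl, the klotho gene, was at 680.2 and 166 CPM. Trpv6, the other epithelial calcium channel, was at 2.47 and 5.69 CPM from 22 and 43 UMIs, and Pth1r, the receptor of parathyroid hormone, was at 177 and 338 CPM. The exchanger thus lay with the calbindins and Trpv6 with Trpv5. Over the 3 lists together, 15 of 35 genes were lower and 7 higher, against 11.9% and 15.4% of all genes, and the median was -0.42 against 0.08 for all genes. Slc8a1, Kcnj10, Trpv6 and Klk1, which is in the calcium list, were also among the markers that named DCT-CNT-like cells. Egf was among those of TAL, so the levels of these genes helped to define the clusters.

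Markers of other cell types and of injury differed within the same DCT-CNT-like cells. The 7 genes of the injury list summed to 7003 CPM in control cells and 55046 CPM in those of the ischemic kidney, and 6 of them were higher. Lcn2 was at 61.0 and 2846 CPM, Havcr1 at 0.449 and 24.9 CPM, and Cd44, which was neither, at 9.43 and 10.2 CPM. The 8 PT markers summed to 476 and 160 CPM, the 4 markers of injured PT to 54.6 and 252 CPM, the 6 TAL markers to 2082 and 1679 CPM and the 8 macrophage markers, 2 of them at 0 in the control, to 9.09 and 11.6 CPM. The 6 DCT markers, none of which is a member, summed to 3624 and 1581 CPM, and the CNT markers to 7720 and 5122 CPM. The part of these differences in the members' values was not tested.

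Genes whose control levels over 12 named cell types were most like those of each member were found by Pearson's r of log2(CPM + 1) among 12646 genes. The points come from 1 library and differ in depth, so r is given as a description. Slc12a3 and Pvalb were nearest to each other (r = 0.958), followed by Lrrc52 (0.884) and Map2k1 (0.874) for Slc12a3 and by Lrrc52 (0.872) and Zfp169 (0.839) for Pvalb. Calb1 and S100g were nearest to each other (0.972), and the nearest gene to Trpv5 was S100g (0.971). After these, Trpv5 was nearest to 9230102O04Rik (0.957) and Calb1 (0.936), Calb1 to Pgam2 (0.954) and Slc8a1 (0.944), and S100g to Trpv5 and to 9230102O04Rik (0.950). The kinase genes did not have the cotransporter among their nearest genes. Wnk4 was nearest to Dmac2 (0.958), Inpp5j (0.957) and B230206L02Rik (0.956), and Stk39 to Tesc (0.949), Rgs6 (0.936) and Hoxb5os (0.933). Klhl3 was nearest to Apobec2 (0.947), Eif3l (0.939) and Tdrd3 (0.926), and Wnk1 to Pgam2 (0.865), Gm26542 (0.865) and Rsph10b (0.851). Trpm6 was nearest to Tmem135 (0.843), Cfap54 (0.836) and Emx1 (0.830), and thus had the lowest values of r among the members.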

How the data were processed

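Single cells of 1 control and 1 ischemic kidney were captured on the 10x 3′ system. Raw UMI counts by gene and barcode were what the authors deposited, made with Cell Ranger 7.0.0 on mm10 per the submitters' processing notes. These counts were not normalized, and the study's filters on cells had not been applied to them. Whether intronic reads were counted is not given in the sources used here. Barcodes with under 200 genes, under 500 or over 150000 UMIs, or over 55% mitochondrial UMIs were removed. They were clustered in Seurat 5.3.0 (R 4.3.3), scaled to 10000 UMIs, on 2000 variable genes without the members, CCA integration, 30 principal components, resolution 0.3 and seed 42. Values were computed with pandas 2.3.3, scipy 1.17.1 and numpy 2.4.6 in Python 3.11.15, figures with matplotlib 3.10.9 and doublet scores with scanpy 1.11.5.

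Marker lists were scored in each cluster by their mean log2 CPM relative to the median cluster (pseudocount 10). The top list gave the name if at least 3 of its markers had 10 UMIs. The 10 leading genes of the cluster also had to hold more markers of that list than of any other. For sub-clusters the condition on leading genes was eased after seeing the data. Scrublet called 0 doublets in both libraries and had thus not worked, so doublets were not removed. Intervals at 95% are exact Poisson (CPM), Clopper-Pearson (shares) and conditional binomial (ratios). PCR and cell capture are not covered by them, and 1 library per condition allowed no test. Of the gene identifiers listed, 32158 were in GENCODE M21. Ratios and thinning were tested on simulated data. The members, lists and rules were chosen with earlier results of these data known. Named are the members, the genes nearest to them over cell types, the genes of the injury list and, for each transport list, the 4 genes with the widest ratio as fixed by rule. Alternatives were other cell filters, scalings, clusterings, a gate on marker UMIs, and 7 sets added after seeing the data.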

Additional observations from a re-analysis of the deposited data

Results flagged for a closer look

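Among 52 comparisons of directions between cell types, 4 that ran opposite to DCT-CNT-like cells were flagged, and none of these differences was tested. The 4 do not include every reversal. Wnk1 was slightly higher in the PT-like cells of the ischemia library (72.8 and 79.1 CPM), by less than 1.5-fold. Its log2 ratio in DCT-CNT-like cells was -1.57. Trpm6 was higher in the ischemia library in TAL-like cells, with a log2 ratio of 1.89 (3.40 and 12.6 CPM), against -0.64 in DCT-CNT-like cells. Macrophage-like cells had 8.53 and 1.75 CPM of Trpm6, so the control level in TAL-like cells was below theirs and the ischemia level above it. S100g was higher in TAL-like cells, with a log2 ratio of 1.93 (162 and 620 CPM), in intercalated-like cells at 2.86 (530 and 3838 CPM) and in PT-like cells at 1.22 (306 and 715 CPM), against -0.64 in DCT-CNT-like cells. Macrophage-like cells had 460 and 258 CPM of S100g. In TAL-like cells the median cell had 138 and 128 CPM of S100g and the 90th percentile was 445 and 1516 CPM, so the pooled difference lay in a part of the cells. In intercalated-like cells the medians were 420.4 and 848 CPM, and in PT-like cells 208 and 415 CPM. What part free RNA or doublets have in these values was not tested.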

How the results depend on the processing

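The ratios in DCT-CNT-like cells were computed under 13 alternatives, 8 of them planned. The number of members past 1.5-fold was 8 to 10 under these, against 9, and it was 5 when 2-fold was required. The median log2 ratio of the members was -1.21 when cells were gated by marker UMIs instead of clustered and -1.05 to -0.90 otherwise, against -0.96. Only 1 member's direction reversed: Trpv5 had a log2 ratio of -0.42 in DCT-CNT-like cells with at most 25% mitochondrial UMIs, where 53 and 49 UMIs limit the precision, and the cause was not tested. Klhl3, Wnk1, Wnk4, Pvalb and Calb1 stayed past 1.5-fold in all 13. Of all values recomputed, 136 moved within their interval or spread, 120 moved beyond it and 1 reversed. Leaving out Scrublet's doublets gave no other value, since it called 0, and the top 8% of its scores were left out instead. No paired analysis was possible because each condition has 1 library, and for the same reason no replicate could be left out.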
